A study of Mus musculus with 8 samples.

Results

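Igf2, H19, Igf2as and Igf2r are 4 of the 22798 rows of a mouse gene expression table, taken by their symbols, and all 4 had enough signal to be among the 14647 genes tested. The table covers 3T3-L1, a clonal line of fibroblast-like preadipocytes of Swiss albino mouse origin that hormones turn into fat cells in the dish. It was sampled at 4 stages with 2 RNA-seq libraries each. Cells of the proliferation stage were in exponential growth, and cells of the quiescence stage had been confluent for 48 hours. Cells of the clonal expansion stage were collected 10 hours after an adipogenic cocktail of insulin (given by the labels as 5 µg/µl), dexamethasone (1 µM) and isobutylmethylxanthine (0.25 mM). Differentiated cells were collected 6 days after the cocktail, which was applied for 48 hours and followed by insulin alone. All cells were grown in medium with 10% fetal bovine serum, so serum growth factors were present at every stage, and no transgene or gene deletion is named for any group. The libraries of a stage are numbered as experiments 1 and 2, with nothing to say that they came from separate cultures. The p-values below therefore rest on the spread between the libraries alone, and that spread may be technical.

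Igf2 encodes insulin-like growth factor 2, a secreted peptide that drives growth through the type 1 IGF receptor and the insulin receptor. In mouse tissues it is made mainly from the copy inherited from the father, whereas its neighbour H19, a long noncoding RNA, is made mainly from the mother's copy. The pair shares enhancers, and a methylated control region bound by the insulator protein CTCF decides which gene they reach on each copy. Igf2as is a transcript read from the opposite strand of Igf2. Igf2r, on another chromosome, encodes the cation-independent mannose 6-phosphate receptor, which carries enzymes to the lysosome and also takes up IGF2 for breakdown. In mouse it is made mainly from the maternal copy, and the antisense noncoding RNA Airn, which starts within it, silences the paternal one. The libraries were unstranded and hold no allele information, so these data give the sum over strands and parental copies.

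The mature microRNAs that the RefSeq tables (GRCm38.p6) place in H19 and Igf2 are shown because the gene-level values of their hosts do not report on them. Capitals mark the seed, bases 2 to 8, and none of the 4 shared its seed with another of the 1738 mature entries.
mmu-miR-675-5p: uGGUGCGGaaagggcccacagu
mmu-miR-675-3p: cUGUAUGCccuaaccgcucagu
mmu-miR-483-5p: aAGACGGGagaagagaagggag
mmu-miR-483-3p: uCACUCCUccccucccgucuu
The first pair lies in H19 and the other pair in Igf2. A row for Mir483 reached at most 5.11 pseudo-counts in any library, in a differentiated one, and it was not tested.

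Promoter windows, the 250 bases before an annotated start, are shown for the most downstream of 4 Igf2 starts, for Igf2r and for Airn, since Igf2 gave the largest rise among the protein-coding members and Igf2r and Airn moved together across the stages. Sequences and coordinates are from RefSeq on GRCm38.p6, 5′ to 3′ on the gene's strand, with CpG dinucleotides in capitals.
Igf2, window 4, chr7:142657497-142657746, minus strand: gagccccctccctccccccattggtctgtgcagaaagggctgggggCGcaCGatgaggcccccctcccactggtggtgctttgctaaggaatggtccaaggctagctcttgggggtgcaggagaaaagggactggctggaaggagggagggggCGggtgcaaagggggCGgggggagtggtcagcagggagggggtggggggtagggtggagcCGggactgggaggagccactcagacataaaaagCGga
Igf2r, chr17:12769707-12769956, minus strand: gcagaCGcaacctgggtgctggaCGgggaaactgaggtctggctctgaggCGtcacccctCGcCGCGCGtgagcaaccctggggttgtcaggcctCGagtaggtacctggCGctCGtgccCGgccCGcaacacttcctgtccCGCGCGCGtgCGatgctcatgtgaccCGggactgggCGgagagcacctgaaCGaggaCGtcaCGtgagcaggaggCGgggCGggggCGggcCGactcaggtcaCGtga
Airn, chr17:12741061-12741310, plus strand: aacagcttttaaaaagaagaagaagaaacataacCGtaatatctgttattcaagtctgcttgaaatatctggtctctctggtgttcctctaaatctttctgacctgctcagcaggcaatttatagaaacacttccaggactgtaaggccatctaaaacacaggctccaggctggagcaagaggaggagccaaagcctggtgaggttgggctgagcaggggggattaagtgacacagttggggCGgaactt
The windows held 6, 27 and 2 CpG dinucleotides, where the median of 32851 windows was 6 with quartiles of 2 and 16. The GC box, GGGCGG on either strand, occurred 2 times in the Igf2 window, 3 times in that of Igf2r and 1 time in that of Airn, and 32.7% of all windows had at least 1. TATAAA, searched on both strands, matched 1 time in the Airn window, on the strand opposite to the one printed, and 0 times in the others, and 12.4% of all windows had a match. No match to TGACGTCA, the cAMP response element, or to GGGGCCCC, a site of the factor Plagl1, was in these 3 windows, and 1.55% and 0.889% of all windows had one. The Igf2 windows not shown held 1, 10 and 22 CpG dinucleotides, and the gene-level values do not tell which Igf2 start was used.

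Levels are given in pseudo-counts, the reads of a gene after the authors had brought all libraries to one common size. They summed to between 122413485 and 151529059.9 per library, and the commonest low value above 0, about what 1 read was worth, lay between 0.934 and 1.154. All 8 fat cell markers were higher at differentiation than at quiescence and all 8 preadipocyte or fibroblast markers were lower. Of all genes tested, 33.4% were higher and 32.9% lower in that comparison. At differentiation 36.8% were higher than at clonal expansion, and 34.5% higher than at proliferation. Of markers of other cell types, Epcam stayed below 1 in every library and the leukocyte genes Ptprc and Emr1 had stage means of at most 1.37 and 0.514. Of 3 tested macrophage markers 0 were higher and 2, Lyz2 and Csf1r, lower at differentiation than at quiescence, and the summed list fell from 3343 to 4809 at proliferation and quiescence, over 1835 to 2640 at clonal expansion, to 730.4 to 741 at differentiation. All 4 tested endothelial markers were lower at differentiation than at quiescence, with sums of 148 to 181 against 404 to 409.8. The keratins Krt8, Krt18 and Krt19 were higher at differentiation, where the summed epithelial list reached 1185 to 2723 against 26.7 to 199 at the other stages. The 2 tested muscle markers, Des and Acta1, were also higher at differentiation than at clonal expansion or quiescence, and Des was higher than at proliferation. Des had 5282 ± 409 at differentiation against 183 ± 66.2 at clonal expansion, and Myod1 and Myog were at or near 0. The part of these marker changes in the results below was not tested. In bulk RNA, fewer cells that make a transcript and less of it per cell cannot be told apart.

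Igf2 was low only in proliferating cells. On mm9, the build of the deposited table, it lies on chromosome 7 from 149836673 to 149846940. The 2 proliferating libraries held 2295 and 1919 pseudo-counts of Igf2, the quiescent ones 54325 and 70440.4, those of clonal expansion 40685 and 49681, and the differentiated ones 69026 and 94462. The proliferating libraries stood far below all others, the quiescent and differentiated ones overlapped, and the clonal expansion ones lay just under the quiescent ones. Stage means ± SD (n = 2 libraries per stage, here and below) were 2107 ± 266, 62383 ± 11395, 45183 ± 6361 and 81744 ± 17986. Igf2 rose 29.6-fold at confluence (log2 fold change, or log2FC, of 4.88, SE 0.18, adjusted p = 1.93e-06), and 4 of the 14647 genes tested rose more. These adjusted p-values are from limma on log2(value + 1) over all genes tested, with Benjamini-Hochberg adjustment and a threshold of 0.05. At 10 hours after the cocktail the level was lower than at quiescence by a small margin (log2FC -0.46, adjusted p = 0.0438). That fall was not called with a transcript length and GC trend removed (-0.37), nor without clonal expansion 1 (-0.32) or quiescence 2 (-0.27), nor in the fits that left out proliferation 1 or proliferation 2 (-0.46 in each). Igf2 then rose again to differentiation (log2FC 0.84, adjusted p = 0.00179), which left it 38.8-fold above proliferation (log2FC 5.27, adjusted p = 7.07e-09). Differentiation and quiescence did not differ by the test (log2FC 0.38, 95% interval -0.02 to 0.79, adjusted p = 0.0851), although the difference was called without differentiation 1 (0.61) or quiescence 2 (0.57).

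H19 also rose at confluence and after the cocktail, but in differentiated cells it was the lowest of the 4 stages. It lies 72.6 kb from Igf2, on chromosome 7 from 149761437 to 149764051 (mm9). Proliferating cells gave 873 and 668 pseudo-counts of H19, quiescent cells 2639 and 3411, cells in clonal expansion 4733 and 6794, and differentiated cells 357 and 594. No pair of stages overlapped, and the gap between the lower proliferating and the higher differentiated library was the narrowest. The means were 771 ± 145, 3025 ± 546, 5763 ± 1457 and 476 ± 168. The rise at confluence was 3.93-fold (log2FC 1.97, SE 0.26, adjusted p = 0.00065), and a further rise of 1.91-fold followed by 10 hours after the cocktail (log2FC 0.92, adjusted p = 0.0100). The fall from there to differentiation was 12.1-fold (log2FC -3.62, adjusted p = 8.34e-07). At differentiation H19 was also below quiescence (log2FC -2.70, adjusted p = 8.32e-06) and, by a smaller margin, below proliferation (log2FC -0.73, adjusted p = 0.0304). The last of these was not called without differentiation 1 (-0.36) or proliferation 1 (-0.53), and the rise after the cocktail was not called without clonal expansion 2 (0.66) or quiescence 1 (0.73).

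Igf2as had the lowest stage mean per kb of exon of the 4 transcripts at every stage, although at differentiation its libraries overlapped those of H19 (169 ± 22.8 against 193 ± 68.1), and its stage means spanned the widest range. Its row spans 149845598 to 149856261 on chromosome 7 (mm9), and 1342 bp of it, 12.6% of its span, lie within Igf2. Igf2as had 17.5 and 12.2 pseudo-counts in proliferating cells, 163 and 231 in quiescent cells, 48.2 and 38.5 in clonal expansion, and 989 and 817 once differentiated. The stages were fully separate, with a peak at quiescence, a dip after the cocktail and the highest values in differentiated cells. Means were 14.9 ± 3.79, 197 ± 48.3, 43.3 ± 6.85 and 903 ± 122. Igf2as rose 13.3-fold at confluence (log2FC 3.64, SE 0.28, adjusted p = 4.13e-05), fell 4.55-fold by clonal expansion (log2FC -2.15, adjusted p = 7.26e-05) and rose 20.9-fold from there to differentiation (log2FC 4.35, adjusted p = 3.45e-07). It ended 60.8-fold above proliferation (log2FC 5.85, adjusted p = 5.2e-08). At proliferation the values stood for about as many reads as pseudo-counts, so the pseudocount of 1 lowers these fold changes slightly. Reads in the overlap with Igf2 cannot be told apart by strand, and how the authors assigned them is not given in the sources used here.

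Igf2r, the receptor, varied least, with a peak at quiescence and a trough at clonal expansion. It lies on chromosome 17 from 12875272 to 12962572 (mm9). Igf2r reached 108312 and 83409 pseudo-counts in the proliferating libraries, 136062 and 171165 in the quiescent ones, 65242 and 62586 in those of clonal expansion, and 86527 and 102530.2 in the differentiated ones. Proliferating and differentiated libraries overlapped, both quiescent libraries were above all others and both clonal expansion libraries below all others. Means were 95860.2 ± 17609, 153613 ± 24822, 63914 ± 1878 and 94529 ± 11316. Igf2r rose 1.6-fold at confluence (log2FC 0.68, SE 0.16, adjusted p = 0.0133), fell 2.4-fold by 10 hours after the cocktail (log2FC -1.26, adjusted p = 6.75e-05) and rose 1.48-fold from there to differentiation (log2FC 0.56, adjusted p = 0.00959). The rise at confluence was not called without proliferation 2 (0.49) and the last rise not without differentiation 2 (0.44). Clonal expansion was also below proliferation (log2FC -0.57, adjusted p = 0.00996), a difference not called without proliferation 1 (-0.38). Differentiation was below quiescence (log2FC -0.70, adjusted p = 0.00326). Differentiated and proliferating cells did not differ by the test (log2FC -0.01, adjusted p = 0.947), with a 95% interval of -0.37 to 0.35 on the log2 scale. The quiescent libraries differ with transcript length, and the length and GC trend at Igf2r, a long transcript, was -0.19 in quiescence 1 and 0.19 in quiescence 2. With that trend removed the rise at confluence was 0.73 and the fall after the cocktail -1.20.

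**Figure D1:**
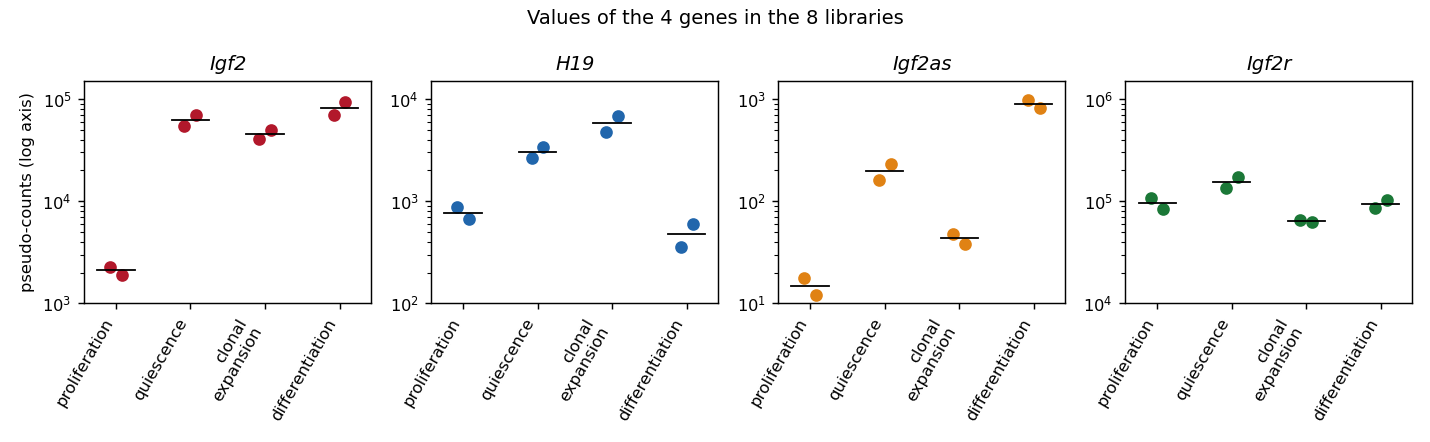
Pseudo-counts (log axes, a different range in each panel) of Igf2, H19, Igf2as and Igf2r in the 2 libraries of each stage (points, experiment 1 on the left) with the stage mean (bar). Igf2 is low only at proliferation, H19 is highest at clonal expansion and lowest at differentiation, Igf2as is highest at differentiation, and Igf2r is highest at quiescence and lowest at clonal expansion.

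The members' calls stand beside those of all genes tested as follows. At confluence all 4 members rose, where 23.7% of genes were called and 11.9% rose. From quiescence to clonal expansion H19 rose and the other 3 fell, with 68.8% of all genes called, 34.4% in each direction. From clonal expansion to differentiation H19 fell and the other 3 rose, with 73% called, 36.8% higher and 36.2% lower. Between quiescence and differentiation Igf2as was higher and H19 and Igf2r lower, with 66.3% called, 33.4% higher and 32.9% lower. Against proliferation, 3 members were higher and Igf2r lower at clonal expansion, with 64.9% called (32.7% higher, 32.1% lower). At differentiation Igf2 and Igf2as were higher and H19 lower than at proliferation, with 67.8% called (34.5% higher, 33.3% lower). The size of a change was also set beside those of all genes. A rise or fall as large as that of H19 from clonal expansion to differentiation was seen in 6.06% of genes, as large as that of Igf2 at confluence in 0.041%, and as large as that of Igf2r from clonal expansion to differentiation in 62.5%. These comparisons share libraries and are not independent. With every library scaled to the same total, all genes shifted by -0.24 (median log2FC) from quiescence to clonal expansion, and 3768 rose and 6302 fell instead of 5038 and 5033. The like splits were 3183 and 6400 instead of 4792 and 4708 between proliferation and clonal expansion (median -0.27), 3795 and 6314 instead of 4892 and 4825 between quiescence and differentiation (median -0.23), and 3760 and 6518 instead of 5051 and 4876 between proliferation and differentiation (median -0.25). No member changed its direction or its call under that scaling or under quantile normalization.

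**Figure D2:**
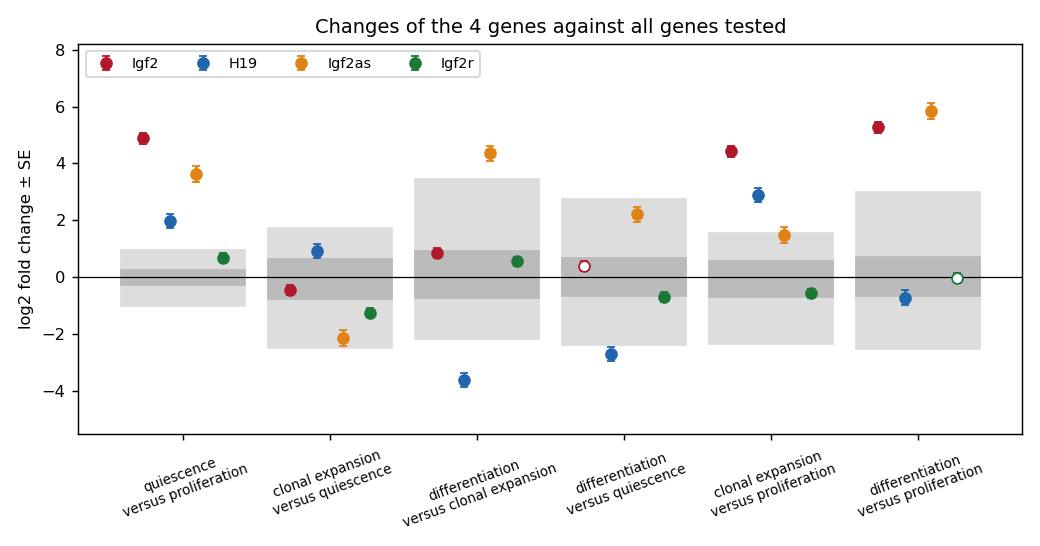
Log2 fold change ± SE of each member in the 6 comparisons of stages (filled, adjusted p under 0.05; open, not called), over bands that hold the middle 50% (dark grey) and 90% (light grey) of all 14647 genes tested. Igf2, H19 and Igf2as lie above the 90% band at confluence, and H19 lies below it at differentiation against both clonal expansion and quiescence.

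Igf2 and H19, which share enhancers, changed unequally. Per kb of exon, the scale on which levels of different genes are compared, Igf2 stood at 1.13 and 1.23 times H19 in proliferating libraries, 8.85 and 8.88 times in quiescent ones, 3.70 and 3.14 times in clonal expansion, and 83.04 and 68.3 times in differentiated ones. Near-equal levels in dividing cells thus gave way to a large excess of Igf2 in differentiated ones, with a lower excess at clonal expansion than at quiescence. The change of H19 minus that of Igf2 was -2.91 on the log2 scale at confluence (adjusted p = 0.000159), 1.38 from quiescence to clonal expansion (adjusted p = 0.0162) and -4.46 from there to differentiation (adjusted p = 0.00224). Since each of these differences holds the deviations of Igf2, the spread borrowed across genes came out too precise. Each was therefore judged by its own 4 residual degrees of freedom in limma, a choice made after the data were seen. The fit with borrowed spread made the same calls in all 6 comparisons. With each library left out in turn and no borrowed spread, the differences at confluence and from clonal expansion to differentiation were called in 8 of 8 fits. The value of 1.38 was called in 4 of 8 and not without either library of quiescence or of clonal expansion (1.26 to 1.495). Within each of the 4 stages the library with more Igf2 also had more H19. With 2 libraries per stage other genes can do so by chance, and their share was not counted.

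Igf2 approached and passed its clearance receptor per kb of exon. Igf2 stood at 0.0345 and 0.0374 times Igf2r in proliferating libraries, 0.649 and 0.669 times in quiescent ones, 1.01 and 1.29 times in clonal expansion, and 1.297 and 1.498 times in differentiated ones. In pseudo-counts not divided by length, Igf2 was below Igf2r in every library, at 0.921 times or less. The crossing thus rests on the exon lengths used, 5723 bp for Igf2 and 9308 bp for Igf2r. In levels, Igf2 rose from 368 ± 46.4 to 14283 ± 3143 pseudo-counts per kb between proliferation and differentiation, and Igf2r was at 10299 ± 1892 and 10156 ± 1216. The change of Igf2r minus that of Igf2 was -4.20 at confluence (adjusted p = 0.000159) and -0.80 from quiescence to clonal expansion (adjusted p = 0.0331), by the same limma fit with no borrowed spread. From clonal expansion to differentiation it was -0.29 and not called (adjusted p = 0.174). With each library left out in turn, -4.20 was called in 8 of 8 fits and -0.80 in 0 of 8 (-0.97 to -0.62). With borrowed spread, -0.80 lost its call without clonal expansion 2 (-0.62), quiescence 1 (-0.77) or quiescence 2 (-0.82).

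Igf2as did not keep a fixed ratio to the gene it overlaps. Per kb of exon it stood at 0.00820 and 0.00681 times Igf2 in proliferating libraries, 0.00322 and 0.00352 in quiescent ones, 0.00127 and 0.00083 in clonal expansion, and 0.0154 and 0.00928 in differentiated ones, an 18.5-fold range. The ratio was lowest in both clonal expansion libraries and highest in both differentiated ones. The change of Igf2as minus that of Igf2 was -1.24 at confluence (adjusted p = 0.0236), -1.69 from quiescence to clonal expansion (adjusted p = 0.0371) and 3.51 from there to differentiation (adjusted p = 0.00627) in limma with no borrowed spread. Between proliferation and differentiation it was 0.58 and not called (adjusted p = 0.172). With each library left out in turn, 3.51 was called in 8 of 8 fits, -1.24 in 4 of 8, not without either library of proliferation or of quiescence (-1.36 to -1.12), and -1.69 in 0 of 8 (-1.99 to -1.38).

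Airn, the antisense partner of Igf2r, had its highest and lowest levels at the same stages as Igf2r. Its row overlaps that of Igf2r over 28.4 kb. Airn had 1673 and 1049 pseudo-counts in proliferating cells, 2089.9 and 3472 in quiescent cells, 822 and 983 in clonal expansion, and 1249 and 1625 once differentiated. Both quiescent libraries were above all others and both clonal expansion libraries below all others. Airn rose at confluence (log2FC 1.02, adjusted p = 0.0228), fell after the cocktail (log2FC -1.58, adjusted p = 0.000494) and rose to differentiation (log2FC 0.66, adjusted p = 0.0481). The last rise was not called at the same total per library (0.66, adjusted p = 0.0562) or with quantile normalization (0.41, adjusted p = 0.234), whereas the other 2 changes were called under both. Per kb of exon it stood at 0.0326 to 0.0525 times Igf2r over the 8 libraries, a 1.61-fold range. Reads of the overlap cannot be told apart by strand, and the part of Igf2r reads in the Airn row was not tested.

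**Figure D3:**
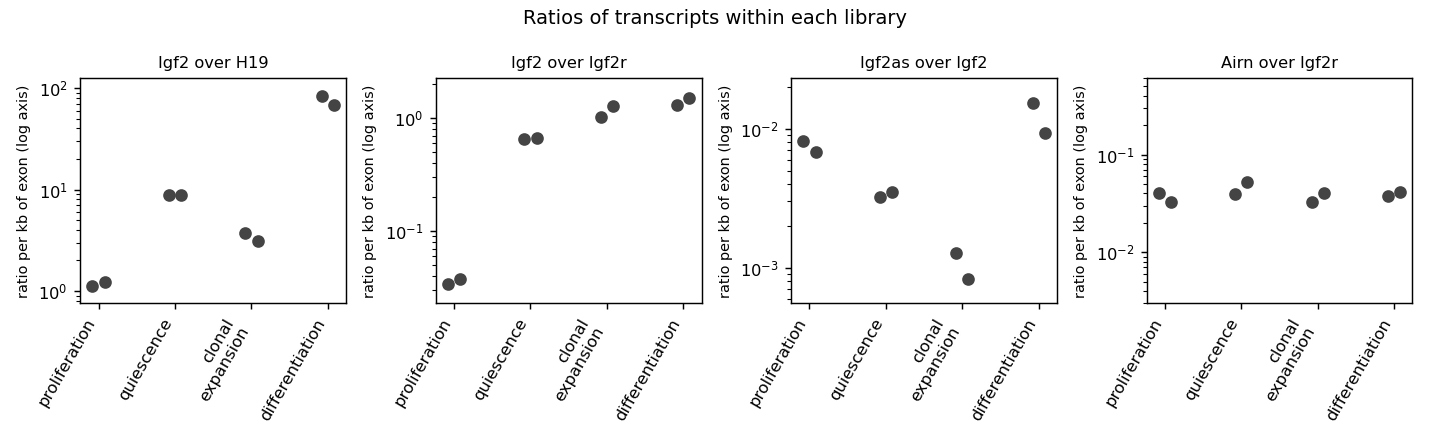
Ratios of pseudo-counts per kb of exon within each library (log axes), by stage, for Igf2 over H19, Igf2 over Igf2r, Igf2as over Igf2 and Airn over Igf2r. The first rises from 1.13 to 83.04 between the lowest proliferating and the highest differentiated library, the third dips at clonal expansion, and the last stays within 0.0326 to 0.0525.

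Around H19 and Igf2, most tested genes were lower at differentiation than at quiescence, as H19 was, whereas Igf2as was higher and Igf2 was not called. Of 12 rows within 250 kb, members aside, 8 were tested. At confluence 1 of them rose and 0 fell, beside 11.9% and 11.8% of all genes. Between quiescence and differentiation 1 was higher and 6 were lower, beside 33.4% and 32.9% of all genes. From clonal expansion to differentiation 1 rose and 4 fell, beside 36.8% and 36.2% of all genes. Lsp1, a leukocyte-specific actin-binding protein gene 80.9 kb from H19, had 8158 and 6645 pseudo-counts at quiescence and 888 and 1151 at differentiation (log2FC -2.86, adjusted p = 1.42e-07). Tnnt3, which encodes fast muscle troponin T and lies nearer to H19, fell from 216 ± 17.3 to 51.8 ± 15.7 (log2FC -2.07, adjusted p = 6.45e-05). Syt8, a synaptotagmin, fell from 62.4 ± 3.15 to 14.3 ± 0.292 (log2FC -2.05) and Tnni2, fast muscle troponin I, from 57.5 ± 10.4 to 9.39 ± 4.69 (log2FC -2.56). Gm14492, whose row overlaps those of Lsp1 and Tnnt3, fell likewise (log2FC -2.30). Unlike H19, none of these 5 rose from quiescence to clonal expansion: Lsp1 fell by 1.78 on the log2 scale, and Tnni2 was not called (log2FC -0.60, adjusted p = 0.252). The sixth, 6330512M04Rik, rose at confluence (log2FC 1.54, adjusted p = 0.0191) and was lower at differentiation than at quiescence (log2FC -1.42, adjusted p = 0.00882). Mrpl23, a mitochondrial ribosomal protein gene 34.8 kb from H19, had means of 35.9 to 55.0 and was called in none of the 6 comparisons. Ctsd, the lysosomal protease cathepsin D, was the 1 tested neighbour that was higher at differentiation than at quiescence (log2FC 0.41, adjusted p = 0.023). Ins2, the insulin gene next to Igf2, was below 1 in every library, and Th, tyrosine hydroxylase, reached at most 9.17. Of the 10 tested genes of a wider list of this locus, 3 were higher and 6 lower at differentiation than at quiescence, or 1 and 6 at the same total per library.

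Genes around Igf2r moved in both directions after the cocktail. Of 14 rows within 250 kb, Airn included, 10 were tested. From quiescence to clonal expansion, where Igf2r fell, 6 of them rose and 3 fell, beside 34.4% of all genes in each direction. At the same total per library 4 rose and 3 fell, and with quantile normalization 5 and 2. Sod2, the mitochondrial superoxide dismutase, rose from 7046 ± 27.4 to 35035 ± 2003 (log2FC 2.31, adjusted p = 9.64e-08). Tcp1, a subunit of the chaperonin that folds actin and tubulin, rose from 30546 ± 3074 to 69406 ± 5174 (log2FC 1.19). Acat2, an acetyl-CoA acetyltransferase, rose from 7003 ± 1429 to 9663 ± 991 (log2FC 0.48, adjusted p = 0.0114). The organic cation transporter gene Slc22a2, which is imprinted with Igf2r in some tissues, fell from 35.3 ± 17.6 to 2.62 ± 0.289 (log2FC -3.24, adjusted p = 0.000113) and was 61.5 ± 3.97 at differentiation. Its relative Slc22a3 stayed at stage means of at most 0.516 and was not tested. Mas1, a receptor of an angiotensin peptide, fell from 142 ± 107 to 45.4 ± 24.5 (log2FC -1.50, adjusted p = 0.0275). Its quiescent libraries differed, with 66.5 and 218 pseudo-counts, and its rise at confluence was not called (log2FC 0.85, adjusted p = 0.276). The Mas1 row overlaps that of Airn, and reads of that overlap cannot be told apart by strand.

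**Figure D4:**
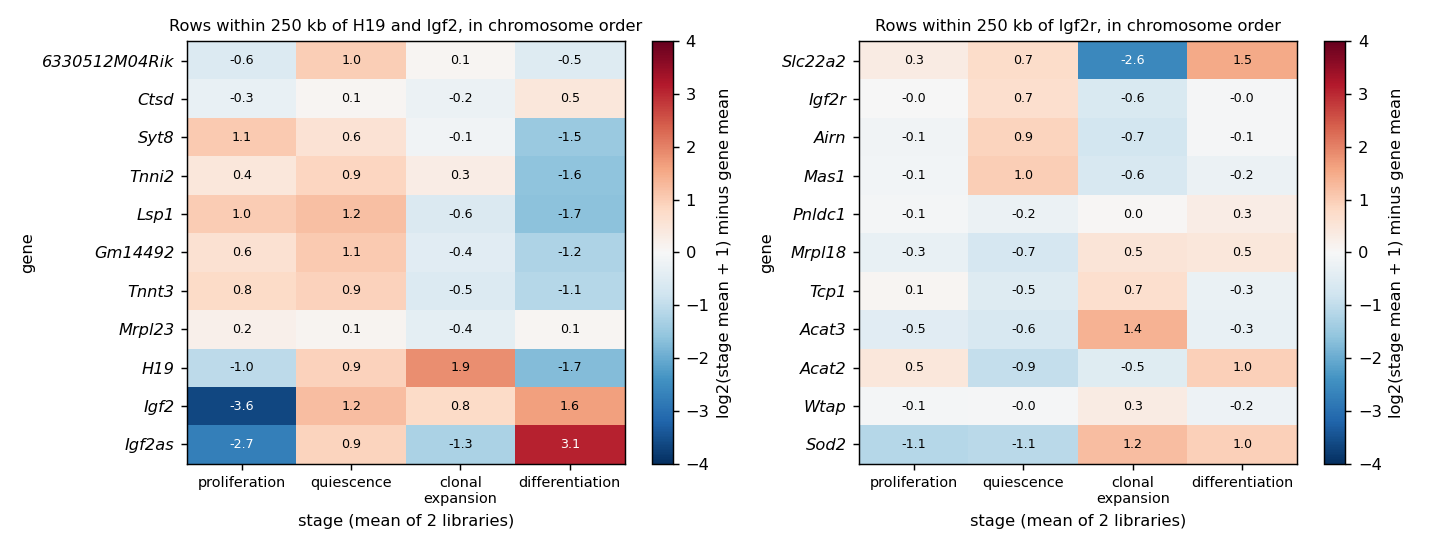
Log2 of the stage mean + 1 minus the mean over stages (colour and number) for tested genes within 250 kb of H19 and Igf2 (left) and of Igf2r (right), in chromosome order. On the left, Syt8, Tnni2, Lsp1, Gm14492, Tnnt3 and H19 are low at differentiation while Igf2 and Igf2as are high. On the right Airn shares the quiescence peak of Igf2r. The mean of Mas1 is also highest there, but through quiescence 2 alone (218 pseudo-counts against 66.5 in quiescence 1).

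Igf1, the other IGF ligand, changed in the same direction as Igf2 in each of the 3 successive steps, with other sizes. It rose at confluence, from 7899 ± 492 to 26732 ± 3159 (log2FC 1.76, adjusted p = 3.41e-05), fell to 3517 ± 552 after the cocktail (log2FC -2.93, adjusted p = 1.33e-07) and rose to 5498 ± 53.9 at differentiation (log2FC 0.65, adjusted p = 0.00108). Against proliferation the ligands went opposite ways. Igf1 was lower at clonal expansion (log2FC -1.17, adjusted p = 3.15e-05) and at differentiation (log2FC -0.52, adjusted p = 0.00485). Igf2 was higher at both (log2FC 4.42 and 5.27). The insulin genes Ins1 and Ins2 were below 1 in every library. Of 8 tested receptors and adaptors, Igf2r included, 1 rose and 0 fell at confluence (1 and 1 at the same total per library), 3 rose and 2 fell from quiescence to clonal expansion (2 and 3 under either other scaling), and 4 rose and 4 fell from there to differentiation. The median log2FC of the list was -0.10, -0.01 and -0.05 in these comparisons, against -0.01, -0.01 and -0.00 for all genes tested. Of all genes, 11.9% rose and 11.8% fell at confluence, 34.4% went each way after the cocktail, and 36.8% rose and 36.2% fell to differentiation. Igf1r, the signalling receptor of both ligands, fell from 17376 ± 2176 to 8636 ± 237 between clonal expansion and differentiation (log2FC -1.003, adjusted p = 0.000181). Insr, the insulin receptor, rose from 8412 ± 840.0 to 40468 ± 1088 (log2FC 2.27, adjusted p = 4.08e-07). Irs1, an adaptor of both receptors, fell after the cocktail from 27215 ± 6202 to 3659 ± 295 (log2FC -2.88) and returned to 24684 ± 4441, while the related Irs2 rose in both steps (log2FC 1.43 and 0.80).

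IGF binding proteins, which hold the ligands outside the cell, and their proteases rose at confluence along with Igf2. Of 13 tested, 8 rose and 1 fell, with a median log2FC of 1.03, beside 11.9% and 11.8% of all genes. The list also holds the stanniocalcin genes Stc1 and Stc2, which are neither, and Stc1 was among the 8 that rose (log2FC 1.81). Igfbp4 rose from 2605 ± 867 to 58264 ± 3578 (log2FC 4.52, adjusted p = 1.93e-06) and went on to 130509 ± 1851 at differentiation. Igfbp5 rose at each step, from 19.04 ± 0.846 over 73.6 ± 36.4 and 235 ± 18.6 to 809 ± 196. Igfbp3 followed the order seen in H19, with 2115 ± 54.3, 4335 ± 680, 5737 ± 748 and 1455 ± 186 from proliferation to differentiation. Igfals, which encodes the acid-labile subunit of the circulating IGF complex, had the dip of Igf2as, with 483 ± 8.06 at quiescence, 34.3 ± 7.56 at clonal expansion and 678 ± 201 at differentiation. From quiescence to clonal expansion 4 rose and 3 fell (2 and 4 at the same total per library), beside 34.4% of all genes in each direction. In that step the protease gene Htra1 went down from 205 ± 41.1 to 7.13 ± 1.5. From clonal expansion to differentiation 6 rose and 5 fell, with a median log2FC of 0.60, beside 36.8% and 36.2% of all genes.

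Transcripts of lysosomal enzymes, the cargo of the receptor, rose and fell with Igf2r in its first 2 steps. Of 31 tested, 16 rose and 0 fell at confluence (median log2FC 0.43), beside 11.9% and 11.8% of all genes. From quiescence to clonal expansion 1 rose and 20 fell (median -0.71), beside 34.4% of all genes in each direction. From there to differentiation 14 rose and 12 fell (median 0.13), beside 36.8% and 36.2% of all genes. Hexa, which encodes a lysosomal hexosaminidase chain, rose at confluence (log2FC 0.91, adjusted p = 0.00308) and fell after the cocktail (log2FC -1.04). Idua, the iduronidase of glycosaminoglycan breakdown, fell from 4984 ± 303 to 849 ± 39.7 after the cocktail (log2FC -2.55), as did the arylsulfatase gene Arsa (log2FC -1.56). The exception that rose there was Npc2, a lysosomal cholesterol carrier (log2FC 1.02, adjusted p = 0.000149). Between clonal expansion and differentiation the largest rises were those of the cathepsin gene Ctsh (log2FC 3.65) and of Manba, a mannosidase (log2FC 3.10), while Ids, an iduronate sulfatase, fell (log2FC -0.97). Whether the enzymes and the receptor move together beyond other genes was not tested.

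Genes of the sorting route gave no direction that held under every scaling in the step after the cocktail. Of 18 tested genes that make the mannose 6-phosphate tag or carry the receptor, 1 rose and 1 fell at confluence, beside 11.9% and 11.8% of all genes. From quiescence to clonal expansion 8 rose and 3 fell (median log2FC 0.18), beside 34.4% of all genes in each direction, and the balance turned to 4 and 5 at the same total per library and to 4 and 6 with quantile normalization. Gnptab, the enzyme that starts the tag, rose from 10851 ± 1289 to 44118 ± 2243 (log2FC 2.03, adjusted p = 8.37e-07). M6pr, the smaller mannose 6-phosphate receptor, rose from 17895 ± 825 to 33933 ± 401 (log2FC 0.92, adjusted p = 1.14e-05) in the step in which Igf2r fell. From clonal expansion to differentiation 2 rose and 6 fell, beside 36.8% and 36.2% of all genes, with M6pr at 25586 ± 766 (log2FC -0.41, adjusted p = 0.0022).

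**Figure D5:**
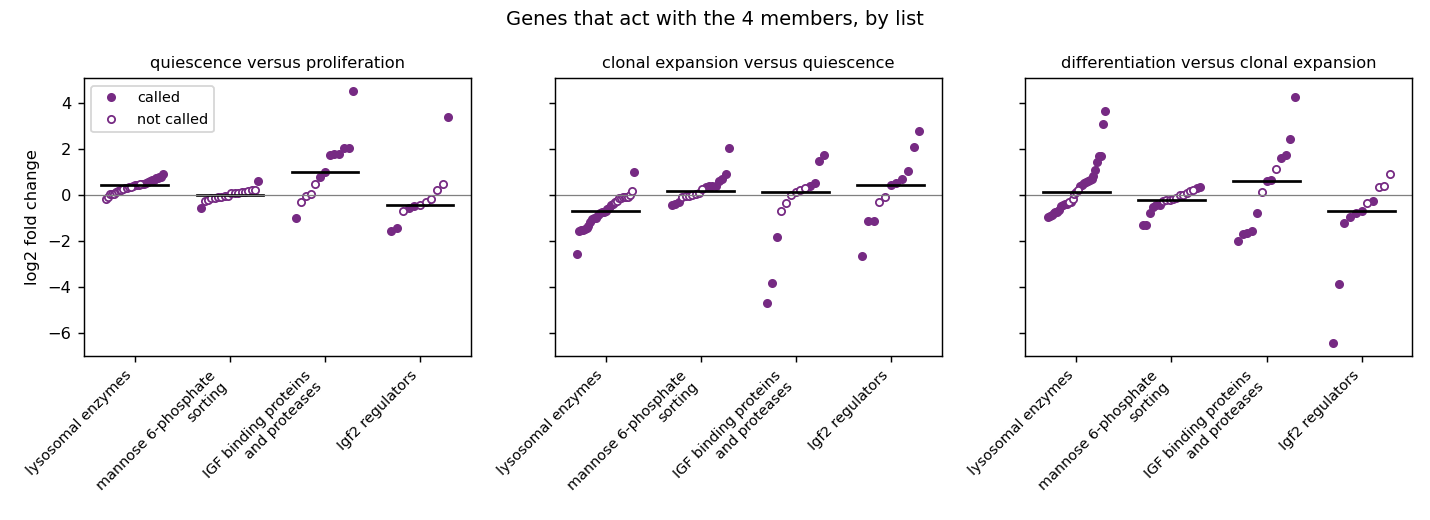
Log2 fold change of each tested gene of 4 lists (filled, adjusted p under 0.05; open, not called; bar, list median) in 3 successive comparisons of stages. The lysosomal enzymes lie mostly above 0 at confluence (16 of 31 called higher, beside 11.9% of all genes). They lie mostly below 0 after the cocktail (20 of 31 called lower, beside 34.4% of all genes).

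Of a list of known regulators of Igf2, which pools factors whatever their effect on it, most fell from clonal expansion to differentiation. Of 11 tested, 0 rose and 7 fell from clonal expansion to differentiation (median log2FC -0.68), beside 36.8% and 36.2% of all genes. At confluence 1 rose and 4 fell (median -0.41), beside 11.9% and 11.8% of all genes. From quiescence to clonal expansion 6 rose and 3 fell (median 0.45), beside 34.4% of all genes in each direction. The counts of this step were 4 and 4 at the same total per library and 3 and 3 with quantile normalization. The 1 that rose at confluence was Plagl1, a zinc finger factor, itself imprinted, that activates Igf2 and H19. It went from 63.6 ± 3.69 to 687 ± 17.4 (log2FC 3.42, adjusted p = 5.96e-05), then to 312 ± 49.1 and 416 ± 184. Hmga2, a chromatin protein that acts on Igf2 through Plag1, fell from 43082 ± 50.6 at clonal expansion to 503 ± 1.1 at differentiation (log2FC -6.42, adjusted p = 5.47e-10). After Hmga2, the largest called fall of the list in that step was that of Wt1. The RNA-binding proteins Igf2bp1, Igf2bp2 and Igf2bp3, which bind Igf2 mRNA, fell in that step (log2FC -0.75, -0.24 and -1.23, with adjusted p = 0.000491, 0.0397 and 1.41e-06).

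Insulator and cohesin genes gave 0 rises and 3 falls of 8 at confluence, beside 11.9% and 11.8% of all genes. From clonal expansion to differentiation they gave 1 rise and 4 falls, beside 36.8% and 36.2% of all genes. The list medians were -0.17 and -0.29. Ctcf, the protein bound between Igf2 and H19, had 13027 ± 340 at clonal expansion and 8669 ± 952 at differentiation (log2FC -0.59, adjusted p = 0.000854) and was not called in the steps before. The cohesin subunit gene Smc3 fell in the same step (log2FC -1.32), as did Stag1 (log2FC -0.94). From quiescence to clonal expansion 2 rose and 1 fell, or 1 and 1 under either other scaling, beside 34.4% of all genes in each direction in the main fit.

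Genes whose pattern was most like that of each member were ranked by Pearson's r of log2(value + 1) over the 8 libraries, among 9194 tested genes whose stage means spanned at least 1 on that scale. The 8 points share 4 stages and are not independent, so r is given as a description. Closest to Igf2 were Dpt, the matrix protein dermatopontin (r = 0.995), the complement gene C4b (0.989), the vitamin D hydroxylase gene Cyp27b1, the claudin gene Cldn2 and Igfbp4 (0.981 each). Dpt went from 1290.3 ± 204 at proliferation to 16029.9 ± 559 at quiescence. Closest to H19 were Dact1, an inhibitor of Wnt signalling (0.986), the ephrin gene Efna5 (0.981), the retinol dehydrogenase gene Rdh10 (0.979), the fibrillin gene Fbn2 and A830082N09Rik (0.977 each). Dact1 had 3381 ± 179 at clonal expansion and 321 ± 40.1 at differentiation. Igf2as was matched most closely by Col15a1, a basement membrane collagen (0.997), Dnmt3a, a DNA methyltransferase (0.991), the growth hormone receptor gene Ghr (0.985), the kinase gene Dapk1 (0.983) and Anks6 (0.982). Dnmt3a had 9096 ± 572 at clonal expansion and 24675 ± 638 at differentiation. Igf2r was matched by Atxn1, the gene of ataxin 1 (0.989), Pcdhga1, a protocadherin (0.988), Prokr1, a prokineticin receptor (0.977), Airn (0.975) and 4931403E22Rik (0.974).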

How the data were processed

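RNA-seq was done on total RNA of 8 libraries, 4 stages with 2 each, as unstranded single reads of 100 nt, per the labels' protocols. The values are a signal per gene: pseudo-counts that the authors made with edgeR using relative log expression factors, per the file headers. CASAVA 1.8.2, edgeR and the mm9 genome are named in the submitters' processing notes, and the aligner and gene models are not given in the sources used here. Only 1.75% of values were whole numbers, reads were not recovered from the rest, and no count model was applied. The pseudo-counts summed to 122413485 to 151529059.9 per library, which is a total after the authors' scaling and not the sequencing depth.

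Genes with a mean of at least 10 were tested (14647 of 22798). Stage was the only term of the model, fitted to log2(value + 1) of the 8 libraries in limma 3.58.1 (R 4.3.3) with its trended prior, giving 4 residual degrees of freedom (9.78 with those borrowed across genes) and a median standard error of 0.142. Tests were two-sided for 6 comparisons of stages, with Benjamini-Hochberg adjustment over all genes tested and a threshold of 0.05. A fold change on the log2(value + 1) scale understates that of low genes, and the x-fold values given are ratios of stage means. On simulated data for the comparison at confluence, with 14647 genes in the fit, it called 31 of 50 genes changed by 1 on the log2 scale, 41 of 50 changed by 2, 48 of 50 changed by 3, 49 of 50 changed by 4, and 14 of 14447 unchanged genes. Changes relative to Igf2 were fitted on the differences from Igf2, with no borrowed spread in place of the planned fit. Exon lengths were unions of GENCODE M21 exons, matched for 99.2% of genes tested, with Igf2as matched under its RefSeq name Igf2os, and are used only for values per kb. Promoter sequences of H19 and Igf2as and protein sequences were not used here.

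Named genes were the members, the 5 genes most like each, rows within 250 kb, a fixed set of IGF, insulator and sorting genes, and up to 2 genes per list and direction with the largest called change; some genes under this rule are not reported here. The members and lists were chosen with earlier results of these data known. Same-numbered libraries deviated together with r above 0.1 in 2 of the 6 pairs of stages, so the numbers were not taken as pairing the libraries. Alternatives were the pseudocount, filter, scaling, trend, libraries in the fit, the replicate block, each library left out, and a length and GC trend removed. Python 3.11.15 with pandas 2.3.3, numpy 2.4.6 and matplotlib 3.10.9 did the rest.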

Additional observations from a re-analysis of the deposited data

How the results depend on the processing

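Over all alternatives, the log2 fold changes of the members kept their sign and call in 404 cases, lost the call in 22, gained it in 3 and changed sign, uncalled, in 3. In many of these cases only the call could move. Another filter, trend, set of stages or block leaves a log2 fold change as it is. So does leaving out a library of a stage not compared. For the fall of Igf2 from quiescence to clonal expansion, the adjusted p was 0.0737 with the length and GC trend removed (-0.37), and 0.200 without the filter on low values, 0.101 without the mean-variance trend and 0.0604 in the fit of only these 2 stages (log2FC -0.46 in each of these 3). Without the filter the H19 rise to clonal expansion (0.92, adjusted p = 0.1002), the H19 difference between differentiation and proliferation (-0.73), and the Igf2r changes at confluence (0.68), between proliferation and clonal expansion (-0.57) and from clonal expansion to differentiation (0.56) were not called. The H19 difference of -0.73 was not called without the mean-variance trend either, nor the Igf2r rise of 0.68 in the fit of only 2 stages. With the length and GC trend removed the Igf2 difference between quiescence and differentiation was called (0.56) and that of Igf2r between proliferation and differentiation was 0.071, not called. The cause was not tested.

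With 1 library left out, the log2 fold changes whose call or sign moved ranged as follows. From quiescence to clonal expansion, H19 ranged from 0.66 to 1.18 and Igf2 from -0.65 to -0.27. Between proliferation and differentiation, H19 ranged from -1.09 to -0.36 and Igf2r from -0.20 to 0.18. Between quiescence and differentiation, Igf2 ranged from 0.16 to 0.61. Igf2r ranged from -0.76 to -0.38 between proliferation and clonal expansion, from 0.44 to 0.68 from there to differentiation, and from 0.49 to 0.87 at confluence. In the fit with borrowed spread, the change of Igf2r minus that of Igf2 ranged from -0.97 to -0.62 from quiescence to clonal expansion, and that of Igf2as from 0.22 to 0.95 between proliferation and differentiation, where it was called without differentiation 2.

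With both experiment numbers at every stage, the replicate block could not move the log2 fold changes (4.88 for Igf2 at confluence), and it changed no member's call. The numbers were not taken as pairing the libraries. Over the genes tested, the difference between the 2 libraries of a stage correlated with that of another stage at r of 0.013 to 0.354. Genes called at confluence were 3472, against 1757 without the filter, 1942 in the fit of 2 stages, 4005 with the block and 1300 without proliferation 2. Of the 5 genes most like each member, 2 or 3 were kept with quantile normalization, and with 1 library left out 1 to 4 for H19, 2 to 5 for Igf2 and for Igf2as, and 1 to 3 for Igf2r.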

Other observations

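Ctcfl, a testis-expressed relative of Ctcf in the insulator list, was at or near 0 until differentiation. It had at most 0.655 pseudo-counts in the 6 earlier libraries and 1146 and 1257 at differentiation. Of 3 neighbouring rows, chosen after their values were seen, 2 were likewise far higher at differentiation than before. The row 1300015D01Rik, 5.22 kb away, had at most 1.89 before and 2114 and 2217 at differentiation. Pck1, a gluconeogenic enzyme of fat and liver that lies 33.5 kb from Ctcfl, had 2.30 to 27.04 before and 14108 and 12407 at differentiation. The exception was Rbm38, 58.9 kb away, which was highest at clonal expansion (1408 ± 3.44) and lower at differentiation (901 ± 17.8, log2FC -0.64, adjusted p = 0.00309). The part of Pck1 reads in the Ctcfl row was not tested.

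Tspan32, a gene farther along the H19 and Igf2 locus, had the dip of Igf2as, with 134 ± 25.3 pseudo-counts at quiescence, 7.33 ± 0.834 at clonal expansion (log2FC -4.01, adjusted p = 9.27e-07) and 233 ± 20.7 at differentiation (log2FC 4.81, adjusted p = 1.13e-07). It was singled out after its values were seen.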
